A study of Setaria italica with 18 samples.

Results

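The genes described here are the potassium and sodium channels and transporters of foxtail millet (Setaria italica) leaves. They are the genes whose description in the expression table names a potassium transporter, a potassium channel or a cation transporter HKT, which gave 52 of the 29108 genes listed. By description they were 8 HKT cation transporters, 28 HAK potassium transporters, 8 Shaker-type potassium channels, 6 two-pore potassium channels and 2 channel beta subunits. Expression was measured by RNA sequencing in 6 groups of 3 libraries, 18 in all. The salt-sensitive variety B175 gave B0, B12 and B24 and the salt-tolerant JK3 gave J0, J12 and J24, where the number is the time in hours (0, 12 or 24) that seedlings had spent in 75% artificial seawater. Leaves 2 and 3 of seedlings grown under 12 h of day and 12 h of night were harvested, and each variety is a single genotype with no mutation or transgene. Day and night were thus exchanged in the 12 h libraries relative to those of 0 and 24 h. The study describes a distilled-water control, but none of the 18 libraries is labelled as one. Time in seawater and time of day thus cannot be told apart.

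HKT proteins carry sodium, and in several cases potassium, across the plasma membrane, and those of the type that carries sodium alone take it out of the xylem sap before it reaches the leaf blade. HAK transporters move potassium into cells or between compartments, and some of them serve uptake when little potassium is outside. Shaker-type channels open with voltage: KAT channels let potassium into guard cells and open stomata, KOR channels let it out, AKT1 is an uptake channel best known from roots, and AKT2 works in the phloem. Two-pore channels release potassium from the vacuole, and beta subunits bind to channel proteins. Under salinity a leaf cell has to hold potassium while sodium competes for the same pathways.

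Levels are FPKM, the fragments of a gene divided by its length in kilobases and by the size of the library, so that members can be compared with each other. The libraries held 34738627 to 38798886 fragments on genes, recovered from the FPKM. One library stood apart from its group. Replicate 2 of B24 had correlations of 0.940 and 0.942 with the other B24 libraries over all genes, against 0.960 to 0.988 in the 16 other pairs within groups, and its mean correlation with the B0 libraries was 0.938, against 0.884 and 0.897 for the other B24 libraries. Calls that change when it is left out are therefore given, with the members or in the closing section. Genes taken by description as markers of leaf mesophyll and bundle sheath also moved with time. The mesophyll list held the genes described as phosphoenolpyruvate carboxylase, carbonic anhydrase or chlorophyll a-b binding protein. Mitochondrial and housekeeping forms are among them, so the list does not mark that cell type alone. The summed level of its 34 genes was 34027 to 45865 FPKM in B0 and 5310 to 9011 FPKM in B12. In JK3 it was 22206 to 25409 FPKM in J0 and 3594 to 3661 FPKM in J12. At 24 h the sum was 15683 to 40277 FPKM in B24 and 13653 to 19199 FPKM in J24. Of the 31 tested genes of this list, 16 fell and 3 rose at 12 h in each variety, by the call rule below. The 12 bundle sheath genes were described as ribulose bisphosphate carboxylase small chain or NADP-dependent malic enzyme. Of these, 7 fell in each variety, and 2 rose in B175 and 3 in JK3. Of all genes, 9.81% fell and 28.03% rose in B175, and 7.67% fell and 23.95% rose in JK3. The part of this shift in the results was not tested. In whole leaves, fewer cells of a type and less RNA per cell cannot be told apart.

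Most of the 52 members were transcribed in these leaves. An FPKM above 0 was found in all 18 libraries for 37 of them, the mean over the libraries was at least 10 FPKM for 23 and at least 1 FPKM for 33, and 5 members rested on fewer than 10 fragments in all. The mean FPKM was at least 0.1 for 43 members, which were tested. They were 7 HKT genes, 23 HAK genes, 5 Shaker-type channels, 6 two-pore channels and both beta subunits. The last tested member, HKT8 (Seita.5G024400), had a mean of 0.111 FPKM, and the first one left out, HAK3 (Seita.5G168000), had 0.0809 FPKM. The other 8 members left out were HKT8 (Seita.5G192900), a second gene each described as HAK15 and HAK19, HAK6, HAK26, and the channels KAT4, KAT6 and KOR2. By the chromosome number in the identifiers, chromosomes 5 and 7 held 10 members each, chromosome 9 held 8 and chromosome 2 held 7, and 1 member lay on a scaffold.

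**Figure D1:**
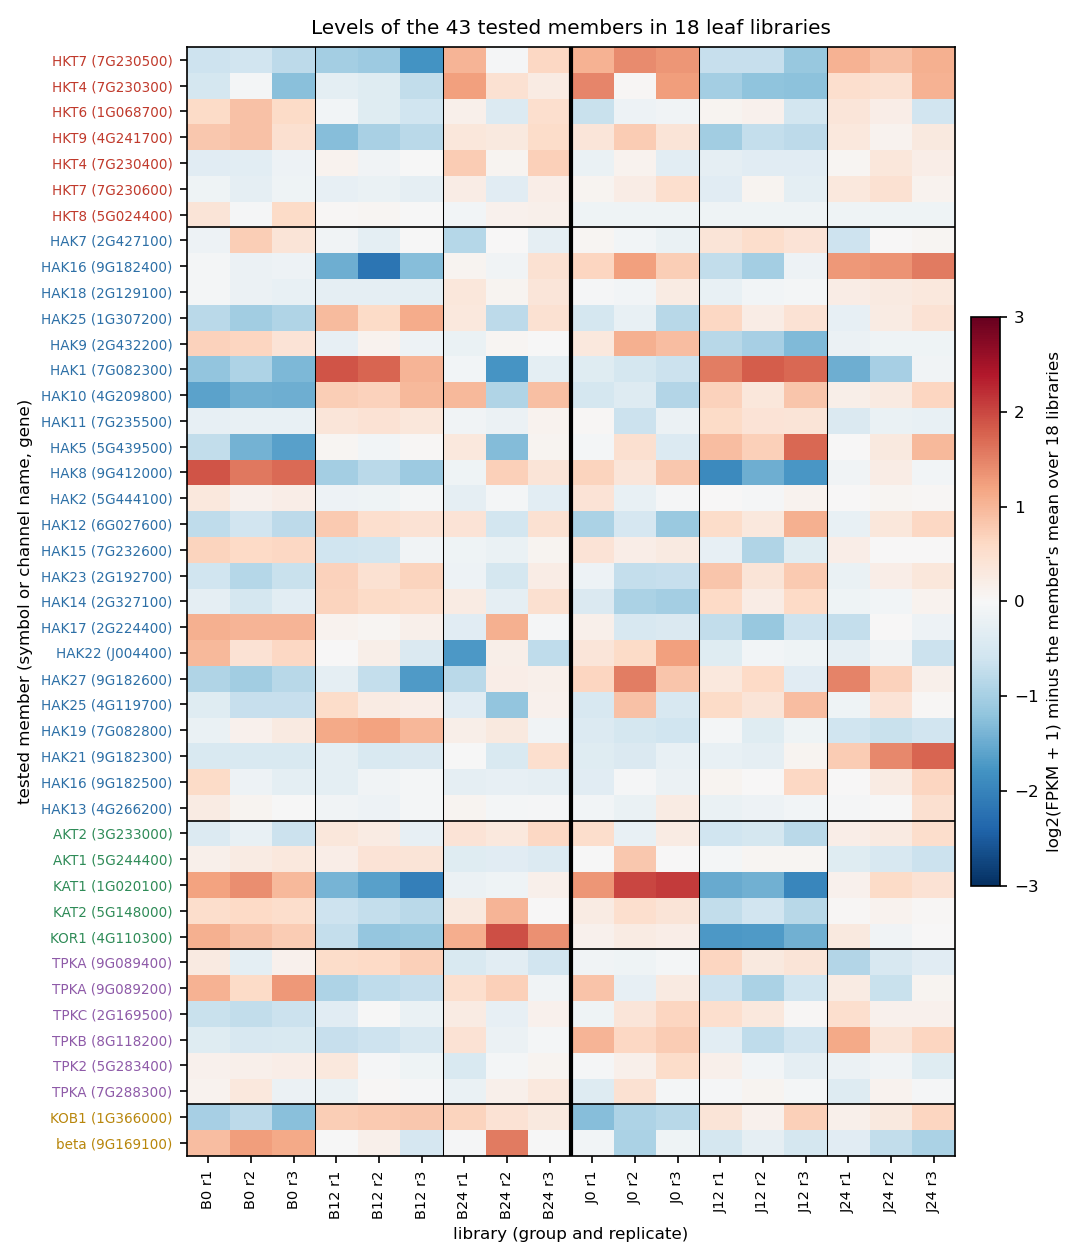
Levels of the 43 tested members in the 18 libraries, as log2(FPKM + 1) minus the mean of each member; rows are members by family (label colours) from the most to the least abundant, and columns are libraries by group and replicate. KAT1, KOR1 and HAK8 are low in all 6 libraries of 12 h, HAK1 is high there, and replicate 2 of B24 differs from its group in HAK1, HAK10 and the beta subunit on chromosome 9.

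Transcript levels were compared with limma on log2(FPKM + 1). For a comparison of groups, a call needed a change past 1 on the log2 scale in either direction. It also needed an adjusted p under 0.05 over all 23824 genes tested. The interaction of variety and time, the change in JK3 minus that in B175, was called on this adjusted p alone, without a fold limit. SE is the standard error of a log2 fold change. In B12 vs B0, 8 members rose and 10 fell, 18 in all, where 37.8% of all genes tested were called, 28.03% rose and 9.81% fell. In J12 vs J0, 7 rose and 11 fell, 18 in all, where 31.6% of all genes were called, 23.95% rose and 7.67% fell. The median log2 fold change of the members was -0.13 in both comparisons, against 0.43 and 0.37 for all genes. Because most genes moved upwards at 12 h, the FPKM were also scaled between libraries by the median ratio, which brought the all-gene medians to 0.01 in both. The members' calls then became 4 up and 15 down in B175 and 1 up and 16 down in JK3, where 15.3% and 12.7% of all genes rose and 16.0% and 12.4% fell. Of the calls without scaling, 14 in B175 and 12 in JK3 were shared with those after scaling.

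The calls at 12 h were then set side by side. KOB1, HAK1, HAK10, HAK12, HAK23 and HAK5 rose in both varieties, which makes 6 members, and 19.1% of all genes rose in both. After scaling HAK1 was the 1 member that rose in both, where 9.57% of all genes did. KAT1, KAT2, KOR1, HAK8, HAK16, HKT9 and the two-pore channel TPKA (Seita.9G089200) fell in both, which makes 7 members, against 6.01% of all genes. After scaling 12 members fell in both, against 9.75% of all genes. They were these 7 and HKT7 (Seita.7G230500), HAK9, HAK15 (Seita.7G232600), HAK17 and HAK22. No member was called in opposite directions, as 0.160% of all genes were. From 12 to 24 h the calls were 9 up and 2 down in each variety, where 7.86% of all genes rose and 18.8% fell in B24 vs B12 and 7.30% rose and 18.7% fell in J24 vs J12. These comparisons use the same 12 h libraries as those from 0 to 12 h and are not independent of them. At 24 h against 0 h, 4 members were up and 3 down in B175 (10.2% and 6.02% of all genes), and 3 up and 1 down in JK3 (5.36% and 2.06%).

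**Figure D2:**
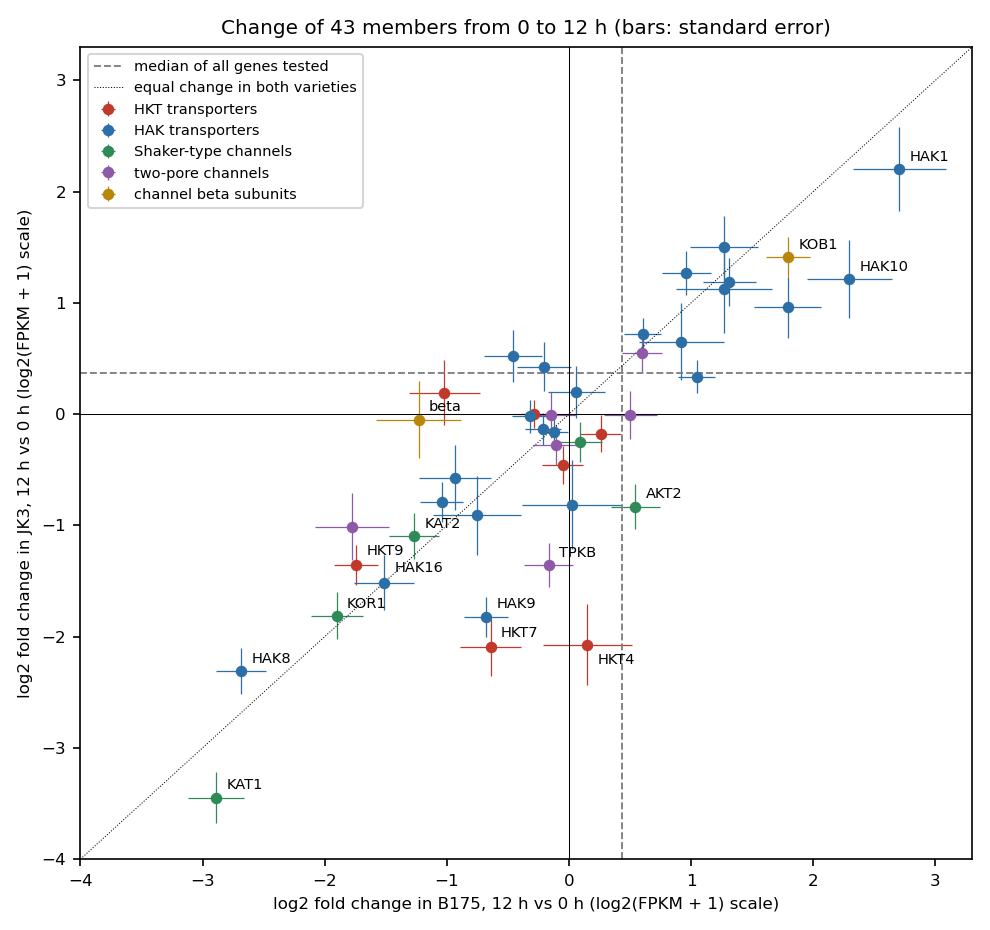
Log2 fold change from 0 to 12 h of the 43 tested members in B175 (horizontal) and JK3 (vertical), on the log2(FPKM + 1) scale, with standard errors as bars; dashed lines mark the medians of all genes tested, 0.43 and 0.37, and the dotted line equal change. KAT1 lies lowest at -2.89 and -3.45, HAK1 highest near 2.7 and 2.2, and HKT4, HKT7, AKT2, TPKB and HAK9 lie below the dotted line.

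Of the 7 HKT genes tested, 2 were called between the varieties at 0 h, both higher in JK3. HKT7 (Seita.7G230500), the most abundant of them and in rice a carrier that removes sodium from the xylem of leaf sheaths, had 5.97, 6.25 and 5.24 FPKM in B0 and 21.0, 27.8 and 26.0 FPKM in J0. The groups did not overlap, and JK3 stood 4.28-fold higher by the means (log2 fold change 1.92, SE 0.25, adjusted p = 6.1e-05 by limma). HKT4 (Seita.7G230300), whose rice namesake also removes sodium from the xylem, had 4.35, 6.41 and 2.23 FPKM in B0 and 20.4, 6.91 and 17.5 FPKM in J0. The lowest J0 library was just above the highest B0 library, and the log2 fold change was 1.54 (SE 0.36, adjusted p = 0.0059). The FPKM of all 8 HKT genes together was 19.2 to 26.9 in the B0 libraries and 43.4 to 51.3 in the J0 libraries. HKT7 and HKT4 (Seita.7G230300) made up 72.2% of the HKT sum over the 18 libraries. HKT6 (Seita.1G068700) lay the other way, with 8.03 to 10.3 FPKM in B0 and 2.82 to 4.71 FPKM in J0, ranges that did not overlap. Its log2 fold change in J0 vs B0 was -0.98 (adjusted p = 0.0205), just under the fold limit, and after scaling it was called (-1.11, adjusted p = 0.0119), which made 2 HKT genes higher and 1 lower in JK3.

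At 12 h both HKT7 and HKT4 were low in JK3. HKT7 had 5.69, 5.61 and 3.92 FPKM in J12 (change from J0 -2.10, SE 0.25, adjusted p = 3.72e-06), and HKT4 had 2.80, 2.35 and 2.29 FPKM (-2.07, SE 0.36, adjusted p = 0.000166). Every J12 library was below every J0 library for both. In B12, HKT7 had 4.32, 4.05 and 2.09 FPKM and HKT4 had 5.28, 5.01 and 3.63 FPKM, and neither was called against B0 (-0.64, adjusted p = 0.0369, and 0.15, adjusted p = 0.748). After scaling HKT7 passed both limits in B175 too (-1.16, adjusted p = 0.000558). At 12 h the varieties overlapped for HKT7. For HKT4 every J12 library was below every B12 library, but the difference did not pass the limits (-0.69, adjusted p = 0.29).

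By 24 h the levels of both genes in B175 overlapped those of JK3. HKT7 had 20.8, 9.44 and 15.4 FPKM in B24 and 21.0, 18.8 and 21.6 FPKM in J24, and HKT4 had 17.2, 9.67 and 8.17 FPKM and 9.96, 9.52 and 14.8 FPKM. The log2 fold change between the varieties was then 0.46 for HKT7 (adjusted p = 0.298) and 0.01 for HKT4 (adjusted p = 0.991). Against B0 the rise in B24 was 1.19 for HKT7 (SE 0.25, adjusted p = 0.00197) and 1.26 for HKT4 (SE 0.36, adjusted p = 0.014), and without replicate 2 of B24 it was 1.48 and 1.36. In J24 vs J0 both genes stood at -0.26 (adjusted p = 0.521 and 0.684).

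The difference between these courses was tested as the interaction of variety and time. From 0 to 12 h, the change in JK3 was lower than that in B175 by 2.22 on the log2 scale for HKT4 (95% interval -3.32 to -1.13, adjusted p = 0.019) and by 1.46 for HKT7 (95% interval -2.21 to -0.70, adjusted p = 0.0253). With limma voom on the recovered fragments neither passed (adjusted p = 0.0534 for HKT4 and 0.0603 for HKT7). Both were also lost without replicate 3 of B0 or replicate 3 of J0, and HKT7 without replicates 1 or 2 of B12, replicate 2 of J0 or replicate 3 of J12. From 0 to 24 h the interaction of HKT7 was -1.45 (95% interval -2.21 to -0.70, adjusted p = 0.0405). HKT7 was the only member called there, where 2.52% of all genes tested were called. That of HKT4 was -1.52 and did not pass (adjusted p = 0.142). The interaction of HKT7 at 24 h was lost when any library of B0, replicate 1 of B24, replicate 3 of J0, replicates 1 or 2 of J12 or replicates 2 or 3 of J24 was left out, and without replicate 2 of B24 it was -1.74 (adjusted p = 0.00338).

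HKT4 (Seita.7G230300) and HKT7 (Seita.7G230500) are 2 of 4 HKT genes with consecutive identifiers on chromosome 7, the others being HKT4 (Seita.7G230400) and HKT7 (Seita.7G230600). The coding lengths implied by the FPKM were 789, 1443, 1695 and 1041 bases in the order of the identifiers. The 2 further copies were rare, with means of 0.302 and 0.289 FPKM and 294 and 204 fragments over the 18 libraries. HKT4 (Seita.7G230400) had 0.00, 0.0186 and 0.143 FPKM in B0 and 1.15, 0.342 and 1.08 FPKM in B24, a log2 fold change of 0.79 (SE 0.17, adjusted p = 0.00199) that passed the fold limit only without replicate 2 of B24 (1.01, adjusted p = 5.42e-05). HKT7 (Seita.7G230600) was at 0.803 FPKM or less in every library. How the counting divided fragments between such neighbouring copies is not given in the sources used here, so the split among the 4 is uncertain.

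**Figure D3:**
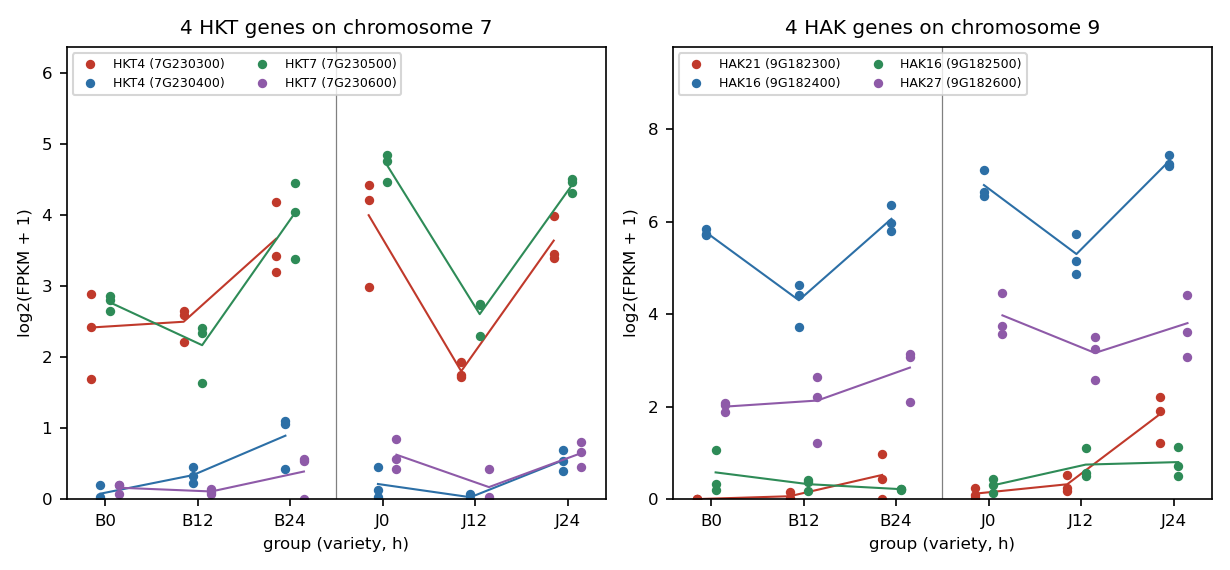
Levels of 4 HKT genes with consecutive identifiers on chromosome 7 (left) and of 4 HAK genes on chromosome 9 (right), as log2(FPKM + 1) by variety and time; points are libraries and lines join the values of the mean FPKM. HKT4 (7G230300) and HKT7 (7G230500) are higher in J0 than in B0. In J12 and B12 HKT7 overlaps and HKT4 is lower in J12, and HAK21 (9G182300) is highest in J24.

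The other HKT genes took different courses. HKT9 (Seita.4G241700) fell in both varieties and came back: it had 3.53, 3.78 and 2.60 FPKM in B0, 0.0653, 0.306 and 0.484 FPKM in B12 and 2.27, 2.18 and 2.80 FPKM in B24. The 12 h libraries lay below all others, 11.6-fold by the means of B0 and B12 (log2 fold change -1.75, SE 0.18, adjusted p = 5.11e-07). In JK3 it fell by 1.36 on the log2 scale (adjusted p = 1.04e-05) and rose again from 12 to 24 h (adjusted p = 0.00011). HKT6 (Seita.1G068700) had 8.07, 10.3 and 8.03 FPKM in B0 and 4.76, 3.74 and 3.05 FPKM in B12 (log2 fold change -1.02, SE 0.29, adjusted p = 0.0061). In J0 and J12 it had 2.82 to 4.71 and 3.16 to 5.67 FPKM, overlapping ranges.

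HKT8 was seen in 1 variety. Its rice namesake is a sodium carrier of the xylem known from work on salt tolerance. HKT8 (Seita.5G024400) gave 133 fragments in B175, with fragments in 9 of 9 libraries, and 0 in the 9 libraries of JK3. The B0 libraries had 0.449, 0.0768 and 0.635 FPKM, and 3 fragments in a JK3 library would correspond to 0.0442 to 0.0493 FPKM, the limit that a count of 0 allows for counting error alone. In J0 vs B0 the log2 fold change was -0.45 (SE 0.13, adjusted p = 0.0169), under the fold limit at this low level. HKT8 (Seita.5G192900) gave 13 fragments in 4 of the B175 libraries and 0 in JK3, and its limit was 0.0958 to 0.107 FPKM in JK3.

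HAK transporters were the largest and most abundant family. Without scaling, the FPKM of the 28 HAK genes together was 534.8 to 575.0 in B0, 619.8 to 676.0 in B12, 574.2 to 647.6 in J0 and 645.8 to 738.8 in J12. Median-ratio scaling puts the 12 h sums below those of 0 h in both varieties, so the direction of this change depends on the scaling. The 5 most abundant members made up 56.3% of the sum over the 18 libraries. In B12 vs B0, 7 HAK genes rose and 3 fell, and in J12 vs J0, 6 rose and 3 fell, of 23 tested. The share that rose was near that of all genes, 28.03% in B175 and 23.95% in JK3. After scaling these numbers were 3 up and 7 down in B175, where 15.3% of all genes rose and 16.0% fell, and 1 up and 7 down in JK3, where 12.7% rose and 12.4% fell.

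HAK1 (Seita.7G082300), in rice a high-affinity potassium transporter that roots induce when potassium is short, showed the largest rise at 12 h. It had 12.6, 15.2 and 11.2 FPKM in B0 and 113, 103 and 62.1 FPKM in B12, and 23.1, 20.7 and 18.8 FPKM in J0 and 88.6, 108 and 102 FPKM in J12. The times did not overlap in either variety. Its means rose 7.12-fold in B175 and 4.77-fold in JK3 (SE 0.38 on the log2 scale for both, adjusted p = 1.34e-05 and 0.000138), and the log2 fold changes after scaling were 2.07 and 1.64. In B24 it had 28.1, 8.10 and 24.2 FPKM, the low value being replicate 2, and in J24 10.2, 14.6 and 27.9 FPKM, log2 fold changes from 12 h of -2.27 and -2.55 (adjusted p = 0.000126 and 4.33e-05). Against B0 it stood at 0.43 in B24 (adjusted p = 0.412), and without replicate 2 at 0.96 (adjusted p = 0.0211), just under the fold limit.

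HAK19 (Seita.7G082800), which lies near HAK1 by its identifier, was scarce. It had 0.378, 0.717 and 0.916 FPKM in B0 and 2.46, 2.64 and 2.16 FPKM in B12, and rose by 1.05 (SE 0.15, adjusted p = 1.56e-05). In J12 it had 0.518, 0.236 and 0.446 FPKM, below every B12 library (log2 fold change of J12 vs B12 -1.29, SE 0.15, adjusted p = 2.03e-05). The rise in B175 was 0.67 after scaling, under the fold limit.

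HAK10 (Seita.4G209800), a potassium transporter whose rice namesake was placed at the vacuolar membrane, rose in both varieties at 12 h. It had 10.9, 12.3 and 12.2 FPKM in B0, 59.3, 57.2 and 69.9 FPKM in B12, and 70.1, 18.5 and 66.6 FPKM in B24, where the low value is replicate 2. All B12 and B24 libraries were above all B0 libraries. The log2 fold change from B0 was 2.30 at 12 h (SE 0.35, adjusted p = 2.95e-05) and 1.83 at 24 h (SE 0.35, adjusted p = 0.000904), and 2.44 at 24 h without replicate 2. JK3 started at 18.9 to 27.0 FPKM in J0, and reached 57.5, 44.6 and 64.1 FPKM in J12 (log2 fold change 1.21, SE 0.35, adjusted p = 0.00757). In J24 it had 40.2, 42.9 and 56.0 FPKM, all above J0, and the log2 fold change of 0.96 did not pass (adjusted p = 0.0686). After scaling the change in J12 was 0.66 and no longer called (adjusted p = 0.107). The interaction of HAK10 at 12 h was -1.08 (adjusted p = 0.226), and it was called only without replicate 2 of B24 (adjusted p = 0.00939), as was that at 24 h (-1.48, adjusted p = 0.00216).

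Other HAK genes rose less. HAK25 (Seita.1G307200) had 32.7, 27.5 and 30.6 FPKM in B0 and 112, 86.5 and 126 FPKM in B12 (log2 fold change 1.79, SE 0.27, adjusted p = 3.37e-05), and in JK3 the change was 0.96, just under the fold limit. In B24 its replicate 2 had 33.0 FPKM beside 71.8 and 79.4 FPKM, and HAK25 was called against B0 only without that library (1.30, adjusted p = 0.000222). HAK12, HAK23 and HAK5 rose in both varieties at 12 h, with means 2.59-, 2.69- and 2.52-fold higher in B175 and 3.10-, 2.41- and 2.28-fold higher in JK3. None of these 3 was called after scaling, with changes of 0.57 to 0.97. HAK14 rose by 1.27 in JK3 (adjusted p = 5.42e-05) and stood at 0.96 in B175, and after scaling at 0.75 and 0.35. HAK12 (Seita.6G027600) was still up in J24, with 12.1, 18.3 and 22.5 FPKM against 6.94, 9.75 and 6.04 FPKM in J0 (2.33-fold by the means, adjusted p = 0.0158).

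HAK8 (Seita.9G412000) was the HAK gene that fell most. It had 58.1, 46.5 and 50.4 FPKM in B0, 6.88, 8.12 and 6.51 FPKM in B12 and 13.4, 25.2 and 19.7 FPKM in B24. In JK3 it had 19.3 to 26.8 FPKM in J0, 3.21, 4.80 and 3.76 FPKM in J12 and 13.9, 17.4 and 14.0 FPKM in J24. No library of one time overlapped with those of another within a variety, and B0 lay above J0. The log2 fold changes at 12 h were -2.69 in B175 and -2.31 in JK3 (SE 0.21 for both, adjusted p = 1.95e-08 and 1.4e-07). In B24 vs B0 it was still at -1.40 (adjusted p = 0.000108), and in J0 vs B0 at -1.12 (SE 0.21, adjusted p = 0.000999).

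HAK16 (Seita.9G182400) stood higher in JK3 at every time. In B175 it had 55.9, 51.6 and 52.5 FPKM at 0 h, 20.4, 12.1 and 23.6 FPKM at 12 h and 61.6, 54.4 and 81.1 FPKM at 24 h. In JK3 it had 92.6, 138 and 98.5 FPKM at 0 h, 34.5, 28.3 and 52.4 FPKM at 12 h and 147, 152 and 174 FPKM at 24 h. The lowest JK3 library lay above the highest B175 library at each time, and the log2 fold changes were 1.01 at 0 h and 1.26 at 24 h, and at 12 h the means differed 2.05-fold (adjusted p = 0.00694, 0.00434 and 0.0146). After scaling those at 0 and 12 h were 0.89 and 0.96, just under the fold limit. Its change at 12 h was -1.51 in B175 and -1.52 in JK3 (SE 0.24 for both, adjusted p = 5.78e-05 and 7.5e-05), and from 12 to 24 h it rose by 1.79 and 2.05. The interaction of variety and time did not pass at 12 h (adjusted p = 0.997) or 24 h (adjusted p = 0.787).

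HAK16 (Seita.9G182400) is 1 of 4 HAK genes with consecutive identifiers on chromosome 9. HAK21 (Seita.9G182300), whose rice namesake has been linked to salt tolerance, had 0.00 FPKM in all 3 B0 libraries, 0.353, 0.00 and 0.956 FPKM in B24, 0.0686, 0.0108 and 0.173 FPKM in J0 and 1.32, 2.74 and 3.63 FPKM in J24. All J24 libraries were above all others. The rise in J24 vs J0 was 1.66 on the log2 scale (SE 0.23, adjusted p = 0.000852), and J24 was higher than B24 by 1.31 (SE 0.23, adjusted p = 0.00224), or by 1.07 without replicate 2 of B24. HAK27 (Seita.9G182600) had 3.08, 2.69 and 3.22 FPKM in B0 and 10.9, 20.8 and 12.4 FPKM in J0, 4.90-fold higher by the means (log2 fold change 1.92, SE 0.40, adjusted p = 0.00261). HAK16 (Seita.9G182500) stayed at 1.17 FPKM or less in every library. As for the HKT genes, the division of fragments among these neighbours is uncertain.

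HAK9 (Seita.2G432200) fell further in JK3. It had 72.7, 70.3 and 59.4 FPKM in B0 and 37.6, 47.9 and 39.8 FPKM in B12, and 55.7, 94.5 and 84.8 FPKM in J0 and 24.6, 21.7 and 17.1 FPKM in J12. The varieties overlapped at 0 h and did not at 12 h. In JK3 the change was -1.82 on the log2 scale (SE 0.18, adjusted p = 4.9e-07), in B175 it was -0.68 (adjusted p = 0.0039), and the interaction was -1.14 (95% interval -1.68 to -0.60, adjusted p = 0.0158). Without replicate 3 of B0 the interaction was -1.05 and no longer called (adjusted p = 0.0508). HAK17 (Seita.2G224400) had 23.6, 22.9 and 22.5 FPKM in B0 and 7.45 to 11.97 FPKM in J0 (log2 fold change -1.29, SE 0.30, adjusted p = 0.00468). After scaling HAK9 and HAK17 were called lower at 12 h than at 0 h in both varieties. HAK5, a further transporter of the high-affinity type in rice, had means of 6.80 FPKM in B0 and 17.6 FPKM in J0, with no overlap of libraries (log2 fold change 1.26, SE 0.39, adjusted p = 0.0258).

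Several abundant HAK genes were not called at 12 h without scaling. HAK7 (Seita.2G427100), the most abundant member with a mean of 96.2 FPKM, was not called in either variety at 12 h, with -0.46 in B12 vs B0 (adjusted p = 0.105) and 0.52 in J12 vs J0. After scaling it was called in B12 vs B0 (-1.11, adjusted p = 0.00242) and stood at -0.04 in J12 vs J0. Without scaling, HAK18 (Seita.2G129100) lay between 52.8 and 84.5 FPKM in all 18 libraries, and HAK2 between 14.4 and 24.3 FPKM. Scaling lowers their values at 12 h against those of 0 h. HAK22 (Seita.J004400), the member on a scaffold, fell from 16.1, 10.9 and 12.5 FPKM in B0 to 1.65, 8.85 and 4.15 FPKM in B24 (log2 fold change -1.45, SE 0.36, adjusted p = 0.00559). The 8.85 FPKM is replicate 2, without which the change was -1.92. HAK15 (Seita.7G232600) fell in B175 at 12 h (log2 fold change -1.04, adjusted p = 9.19e-05). After scaling HAK15 and HAK22 were called lower at 12 h in both varieties. HAK11, HAK13 and HAK25 (Seita.4G119700) were called in no comparison.

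Of the 5 Shaker-type channels tested at 12 h, KAT1, KAT2 and KOR1 fell in both varieties and none rose, where 6.01% of all genes fell in both. After scaling AKT2 was called too in JK3, so that 4 of 5 fell there, against 12.4% of all genes. KAT1 (Seita.1G020100), which in Arabidopsis carries the inward potassium current of guard cells, had 29.4, 33.3 and 24.8 FPKM in B0, 3.99, 3.23 and 2.14 FPKM in B12 and 10.7, 10.9 and 13.6 FPKM in B24. In JK3 it had 32.1, 51.8 and 55.0 FPKM in J0, 3.59, 3.83 and 2.39 FPKM in J12 and 13.4, 18.5 and 16.8 FPKM in J24. The 3 times did not overlap in either variety. It was 9.35-fold lower in B12 than in B0 by the means and 14.1-fold lower in J12 than in J0 (log2 fold changes -2.89 and -3.45, SE 0.23 for both, adjusted p = 2.97e-08 and 5.49e-09). KAT1 was the 1 member still down at 24 h in both varieties, where 1.26% of all genes were, with -1.24 in B24 vs B0 and -1.43 in J24 vs J0 (adjusted p = 0.000733 and 0.00159).

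KAT2 (Seita.5G148000), a second inward channel, had 9.26, 9.80 and 9.16 FPKM in B0 and 3.58, 3.31 and 3.06 FPKM in B12, and 7.39, 9.07 and 8.35 FPKM in J0 and 3.29, 3.74 and 2.98 FPKM in J12. Its means were 2.83-fold and 2.48-fold lower at 12 h (SE 0.20 on the log2 scale for both, adjusted p = 5.52e-05 and 0.000286). KOR1 (Seita.4G110300), an outward channel, had 11.2, 9.75 and 8.79 FPKM in B0, 2.53, 1.59 and 1.68 FPKM in B12 and 11.3, 21.1 and 14.0 FPKM in B24. In JK3 it had 5.33, 5.87 and 5.71 FPKM in J0, 0.749, 0.794 and 1.14 FPKM in J12 and 6.16, 4.43 and 4.81 FPKM in J24. All B175 libraries were above all JK3 libraries of the same time. The log2 fold changes at 12 h were -1.90 and -1.81 (adjusted p = 1.19e-06 and 2.78e-06), and those from 12 to 24 h were 2.46 and 1.69 (adjusted p = 1.25e-07 and 7.66e-06). In J24 vs B24 KOR1 was lower in JK3 (-1.39, SE 0.21, adjusted p = 0.000508), and the value was -1.16 without replicate 2 of B24.

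A list of 11 genes taken by description, S-type anion channels, FAMA and MYB60, was set beside the KAT and KOR channels. Of its S-type anion channels only SLAC1 is described as a guard cell channel, so the list does not mark guard cells alone. Without scaling, the summed level of the list was 42.2 to 61.4 FPKM in B0 and 21.9 to 31.6 FPKM in B12. In JK3 it was 25.4 to 39.8 FPKM in J0 and 30.0 to 40.0 FPKM in J12. Its members went both ways. Of the 10 tested, 3 rose and 4 fell in B175 and 3 rose and 3 fell in JK3, where 28.03% and 23.95% of all genes rose and 9.81% and 7.67% fell. The 3 that rose were S-type anion channels described as SLAH3, the same genes in both varieties (Seita.3G078200, Seita.3G128900 and Seita.5G231800), and in JK3 their means went from 0.923, 2.69 and 0.299 FPKM to 8.58, 8.54 and 6.74 FPKM. SLAC1, the anion channel that closes stomata, fell in both varieties, from 3.76 to 0.824 FPKM in B175 and from 2.48 to 0.626 FPKM in JK3 by the means. A further SLAH3 gene (Seita.5G012000) and MYB60 (Seita.8G006900), a transcription factor of guard cells, also fell in both, and a second MYB60 gene (Seita.7G307500) fell in B175. FAMA, a transcription factor that sets guard cell fate, had means of 2.78 FPKM in J0 and 1.31 FPKM in J12 and was not called (-0.71, adjusted p = 0.00466). The part of guard cells in the values of KAT1, KAT2 and KOR1 was not tested.

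AKT2 (Seita.3G233000), the most abundant channel of this type at a mean of 26.6 FPKM, split the varieties at 12 h. It had 18.7, 21.5 and 15.8 FPKM in B0 and 32.3, 30.5 and 21.1 FPKM in B12, and 37.2, 21.4 and 30.1 FPKM in J0 and 16.3, 17.2 and 14.0 FPKM in J12. The B175 groups overlapped, and all J12 libraries were below all J0 and all B12 libraries. Neither change was past the fold limit, with 0.54 in B175 (adjusted p = 0.0273; -0.08 after scaling) and -0.83 in JK3 (adjusted p = 0.00232; -1.37 after scaling). The interaction was -1.38 (95% interval -1.98 to -0.77, adjusted p = 0.00997). AKT2 was called in the interaction in each of the 18 fits that left out 1 library. At 24 h the varieties overlapped, at 31.6 to 39.7 FPKM in B24 and 29.2 to 36.9 FPKM in J24. Without scaling, the sum of 11 genes taken by description as phloem markers rose in both varieties. It went from 215.6 to 243.1 FPKM in B0 to 348.9 to 404.1 FPKM in B12, and from 208.0 to 256.7 FPKM in J0 to 334.6 to 387.5 FPKM in J12. The median-ratio factors were 0.762 to 0.892 in B0, 1.27 to 1.33 in B12, 0.867 to 0.929 in J0 and 1.32 to 1.35 in J12. Dividing by them takes away most of the rise of these sums. Of the 10 phloem genes tested, 5 rose in B175 and 2 in JK3 without scaling, and none fell. Of all genes, 28.03% and 23.95% rose. AKT1 (Seita.5G244400) was at 11.5 to 33.4 FPKM in all libraries and was called in no comparison. Of 12 genes taken by description as root markers, 7 had a mean under 0.1 FPKM, and the summed level of the list was 3.35 to 108 FPKM over the libraries. Most of that sum at 0 and 24 h came from a nitrate transporter, which was at 0.213 FPKM in B12 and 0.833 FPKM in J12 on average (Seita.5G198500).

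**Figure D4:**
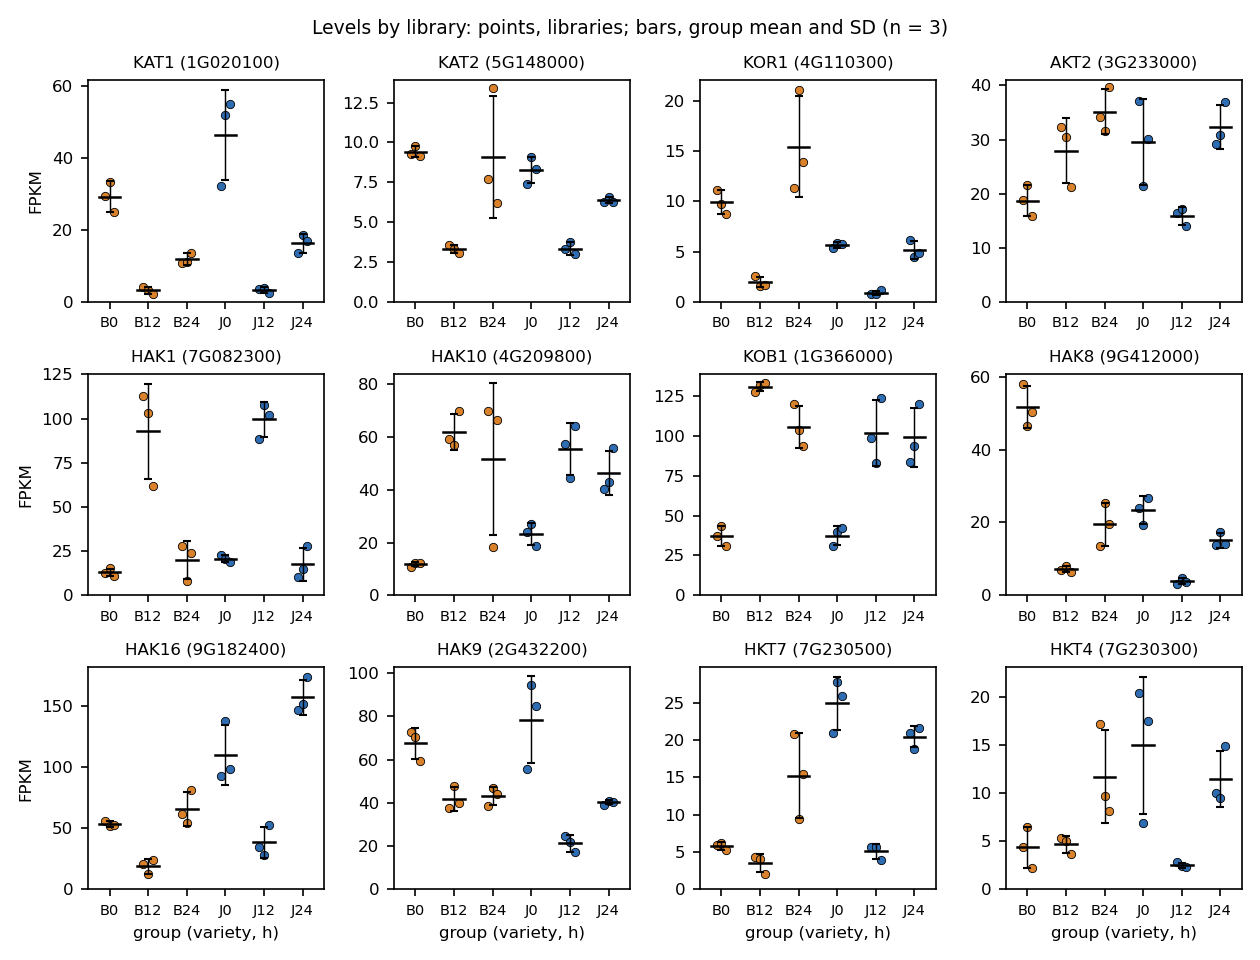
FPKM of 12 members in the 18 libraries by variety and time (orange, B175; blue, JK3); points are libraries, and bars give the mean and SD of 3. KAT1, KAT2, KOR1 and HAK8 are low at 12 h in both varieties, AKT2 and HKT4 are lower at 12 h than at 0 h in JK3 and not in B175, and HAK16 is higher in JK3 at each time.

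The two-pore channels differed among themselves. TPKA (Seita.9G089400) was the most abundant, with a mean of 28.6 FPKM. It had 21.9 to 32.7 FPKM in B0, 40.6 to 45.2 FPKM in B12 and 18.0 to 21.8 FPKM in B24, and from 12 to 24 h its log2 fold changes were -1.07 in B175 and -1.01 in JK3 (SE 0.17 for both, adjusted p = 6.4e-05 and 0.000111). After scaling they were -0.61 and -0.52, under the fold limit. The TPKA gene near it by identifier, Seita.9G089200, moved the other way: it had 13.7, 9.56 and 16.3 FPKM in B0, 2.71, 3.16 and 3.34 FPKM in B12 and 8.98, 10.6 and 5.53 FPKM in B24. Its change at 12 h was -1.77 in B175 (SE 0.30, adjusted p = 9.24e-05) and -1.01 in JK3 (SE 0.30, adjusted p = 0.00962). TPKC (Seita.2G169500) had 2.53 to 2.81 FPKM in B0 and 4.40 to 8.22 FPKM in J0 (log2 fold change 0.97, adjusted p = 0.00361), and it was called in no comparison.

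TPKB (Seita.8G118200) had 0.310, 0.220 and 0.235 FPKM in B0 and 2.44, 1.61 and 1.90 FPKM in J0, and 0.359, 0.00 and 0.143 FPKM in J12. It was 7.78-fold higher in J0 than in B0 by the means (log2 fold change 1.24, SE 0.20, adjusted p = 0.000339), fell in J12 (-1.36, adjusted p = 2.96e-05), and came back to 1.23 to 2.75 FPKM in J24. In B12 it had 0.0479, 0.0997 and 0.213 FPKM, and the change in B175 was -0.17. The interaction at 12 h was -1.19 (95% interval -1.79 to -0.59, adjusted p = 0.0212). With a limma voom fit of the recovered fragments, in which this scarce gene has 639 fragments over 18 libraries, the interaction was -3.29 and did not pass (adjusted p = 0.171), and it was also lost without replicate 3 of B0, replicate 3 of B12 or replicate 2 of J12. TPK2 and TPKA (Seita.7G288300) had means of 0.677 and 0.365 FPKM and were called in no comparison.

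The beta subunits went in opposite directions in B175. KOB1 (Seita.1G366000), which is described as a voltage-gated channel beta subunit, had 37.4, 43.6 and 31.0 FPKM in B0, 127, 132 and 133 FPKM in B12 and 119.8, 103 and 93.5 FPKM in B24. In JK3 it had 30.7, 39.4 and 42.2 FPKM in J0, 98.7, 83.0 and 124 FPKM in J12 and 83.6, 93.4 and 119.6 FPKM in J24. All libraries of 12 and 24 h were above all those of 0 h, and the varieties were near each other at 0 h. The log2 fold changes were 1.79 and 1.41 at 12 h (SE 0.18 for both, adjusted p = 3.92e-07 and 7.29e-06) and 1.48 and 1.37 at 24 h (adjusted p = 2.12e-05 and 0.000611). KOB1 was the 1 member up at 24 h in both varieties, where 3.84% of all genes were. After scaling the change in J12 was 0.85, under the fold limit.

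The other beta subunit (Seita.9G169100) had 44.8, 57.2 and 52.4 FPKM in B0 and 22.8, 25.9 and 16.1 FPKM in B12 (log2 fold change -1.23, SE 0.35, adjusted p = 0.00569). In J0 it had 22.0, 11.6 and 21.0 FPKM, below every B0 library (-1.49, SE 0.35, adjusted p = 0.0051), and in J12 15.8 to 19.2 FPKM, which lay within the J0 range. In B24 it had 22.5, 70.1 and 23.0 FPKM, the high value being replicate 2. Without that library it was called in B24 vs B0 (-1.13, adjusted p = 0.00217) and in the interaction at 12 h (1.18, adjusted p = 0.032), and with it in neither (adjusted p = 0.196 and 0.18).

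Between the varieties, 9 members differed at 0 h, 6 higher and 3 lower in JK3, where 6.78% of all genes tested were higher and 6.02% lower. The higher ones were HKT7, HKT4, HAK27, HAK5, TPKB and HAK16, and the lower ones the beta subunit Seita.9G169100, HAK17 and HAK8. At 12 h 2 members differed, HAK16 higher and HAK19 lower in JK3, where 3.97% of all genes were higher and 2.38% lower. At 24 h 3 members differed, HAK16 and HAK21 higher and KOR1 lower, where 2.28% of all genes were higher and 2.28% lower. In the interaction from 0 to 12 h, 5 members were called (HKT4, HKT7, AKT2, TPKB and HAK9), all with the lower change in JK3, where 2.28% of all genes were called with the higher and 3.58% with the lower change in JK3. HKT4, HKT7, TPKB and HAK9 fell in J12, and AKT2 had a lower mean there without passing the fold limit. All 5 had a higher mean in J0 than in B0. With limma voom 2 of the 5, AKT2 and HAK9, were still called. Without replicate 3 of B0 the number called was 1, without replicate 3 of J0 it was 3, and without replicate 2 of B24 it was 8.

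Other genes of potassium and sodium transport were counted by description. CIPK kinases, which with calcium-binding CBL proteins switch on potassium channels, had 10 members up and 9 down of 33 tested in B12 vs B0 and 8 up and 11 down in J12 vs J0. Of 10 CBL genes, 3 fell in B175, and 3 fell and 1 rose in JK3. Of 8 sodium/proton exchangers tested, 3 rose in B175 at 12 h and none in JK3. Of 6 plasma membrane proton pumps, 2 rose in B175, and 2 rose and 1 fell in JK3. Potassium efflux antiporters had 2 of 4 down in B175 and 1 of 4 down in JK3. Cyclic nucleotide-gated channels, which admit cations and are possible entry routes of sodium, had 2 up and 2 down of 12 in B175 and 1 up and 2 down in JK3, and glutamate receptors had 2 of 10 down in B175 and 2 up and 2 down in JK3. Of 6 S-type anion channels, 3 rose and 2 fell in each variety, and of 5 malate transporters 1 rose in B175. The shares of all genes in these comparisons were 28.03% up and 9.81% down in B175 and 23.95% up and 7.67% down in JK3. In the interaction from 0 to 12 h, 1 sodium/proton exchanger and 1 malate transporter were called, both with the lower change in JK3. CIPK kinases had 1 gene with the higher and 4 with the lower change, and 1 glutamate receptor had the higher change. The other lists had none. Of all genes, 2.28% were called with the higher and 3.58% with the lower change in JK3.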

How the data were processed

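RNA was sequenced from 18 leaf libraries, and the authors deposited 1 table of FPKM for 29108 genes. The submitters' processing notes name fastp, HISAT2, HTSeq, DESeq2 and R 3.2.0, with a mouse build (mm10) that cannot be that of these genes. Beta subunits and two-pore channels were taken from wordings such as "subunit beta". The members and gene lists were chosen with earlier results of these data known. Genes with a mean of 0.1 FPKM or more were fitted as log2(FPKM + 1) with limma 3.58.1 (R 4.3.3) with 1 mean per group and a variance trend. Fold changes on this scale understate the change of low genes. Tests were two-sided, with Benjamini-Hochberg adjustment over the genes tested. With 3 libraries a group the smallest exact permutation p is 0.1. Whole fragments came out for 100% of the genes (within 0.02 of a whole number). They give depth and served limma voom. The smallest numbers that were whole in all libraries were taken. A factor common to all libraries is therefore missed, and the total of a gene with few fragments can be too low. The code was tested on simulated data. Members were named by a rule (all HKT, the 3 most abundant per family, the 3 largest changes in each direction, all interactions). Alternatives were a pseudocount of 0.1, no filter, a filter at a mean FPKM of 1, scaling by the median ratio, quantile normalization, a block for the replicate number, voom, and leaving out each library. Other steps used Python 3.11.15. No sequences of the members were used here.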

Additional observations from a re-analysis of the deposited data

Results flagged for a closer look

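The interaction test called a difference between B175 and JK3 in the change from 0 to 12 h for HKT4 (Seita.7G230300, -2.22), HKT7 (Seita.7G230500, -1.46), AKT2 (Seita.3G233000, -1.38), TPKB (Seita.8G118200, -1.19) and HAK9 (Seita.2G432200, -1.14), each value being the log2 fold change in JK3 minus that in B175. With limma voom the calls of AKT2 and HAK9 held and those of the other 3 did not, and without replicate 3 of B0 that of AKT2 alone held. From 0 to 24 h it differed for HKT7 (-1.45), a call lost when any one of several libraries was left out. The part of variety differences at 0 h in these values, and of time of day in those from 0 to 12 h, was not tested.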

How the results depend on the processing

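Of 151 member changes (adjusted p under 0.05 or called), median-ratio scaling took 14 across a limit downwards, brought 12 past it and turned 5, none of which was past the fold limit: AKT2 (Seita.3G233000) in B12 vs B0 (-0.0845), HAK11 (Seita.7G235500) in B12 vs B0 (-0.0352) and B24 vs B12 (0.0236), and TPKA (Seita.9G089400) in B12 vs B0 (-0.0410) and J12 vs J0 (-0.00629). Quantile normalization gave 13 and 11, voom 3 and 16, a pseudocount of 0.1 gave 2 and 15, and no filter 1 and 0. Counts that moved by over 1.5 times were J24 vs J12 under quantile normalization (17 against 11), J12 vs B12 with a mean FPKM of at least 1 and with scaling (1 each, against 2) and under quantile normalization (4), J24 vs B24 with a pseudocount of 0.1 and with voom (5 each, against 3), the interaction at 12 h with voom (2 against 5), and the interaction at 24 h with a pseudocount of 0.1 and with no filter (0 each, against 1). In J0 vs B0 the count was 13 with a pseudocount of 0.1 and 13 with voom, against 9.

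With 1 library left out at a time there were 17 to 19 calls in B12 vs B0, 17 to 21 in J12 vs J0, 4 to 13 in B24 vs B0, 3 to 5 in J24 vs J0, 11 to 13 in B24 vs B12, 11 to 12 in J24 vs J12, 7 to 10 in J0 vs B0, 1 to 3 in J12 vs B12, 3 to 4 in J24 vs B24, 1 to 8 in the interaction at 12 h and 0 to 5 in that at 24 h. B24 vs B0 gave 4 without replicate 1 of B24 and 13 without replicate 2, where all 7 calls were shared and HAK25, HAK17, HAK5, HAK12, HKT4 (Seita.7G230400) and the beta subunit Seita.9G169100 were added. In B24 vs B12 the count stayed at 11 without replicate 2 of B24, but the members changed. HAK19 (Seita.7G082800) and HAK22 were gained, and KAT2 and TPKA (Seita.9G089200) were lost. Without that library HAK22 was also gained in J24 vs J0 and HAK5 in J12 vs B12. The interaction at 12 h gained HAK10, HAK19 and the beta subunit Seita.9G169100. That at 24 h gained HAK17, HAK10, HKT4 (Seita.7G230400) and HAK8. J12 vs B12 gave 1 without replicate 2 of B12 or replicate 3 of J12. The causes were not tested.

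Same-numbered libraries had mean correlations of their deviations from -0.06 to 0.20, and in no comparison did all 3 pairs pass 0.1, so the numbers were not taken as pairs. With the replicate block the counts stayed at 18, 18, 7, 4, 11, 11, 9, 2, 3, 5 and 1, and 0 of the 151 changes crossed a limit.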
